A study of Homo sapiens with 6 samples.

Results

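The collagen genes were taken as every gene whose probe sets the platform annotation assigns to a single symbol made of COL, a number, A and a number. This rule used no measured value and found 43 genes with 112 probe sets, among 19775 genes and 54613 probe sets tested. The family itself was chosen with earlier results of these data known. Of the 44 collagen genes sorted into classes, COL17A1 was not analysed here. Expression was measured on Affymetrix U133 Plus 2.0 arrays in ONS-76, a human medulloblastoma cell line, in 2 groups of 3 arrays: siKDM1A cells, transfected with siRNA against the histone demethylase KDM1A (also called LSD1), and control cells, which received transfection reagent without siRNA. The arrays carry the letters a, b and c in each group, and the study's methods describe separate transfections for each. The labels give harvest at 48 h and name the siRNA target KDM5A/LSD1, whereas the study's text names KDM1A and a later time. Loss of KDM1A and the delivery of an siRNA cannot be told apart in this design, and the only cell line here is ONS-76.

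Collagens are secreted matrix proteins whose chains wind around each other into a rope-like helix with glycine at regular intervals. Fibril-forming collagens (types I, II, III, V, XI, XXIV and XXVII) assemble into the banded fibrils of connective tissue, FACIT collagens sit on the surface of those fibrils, type IV collagens build the sheet of basement membranes, and type VI collagens form beaded filaments around cells. In normal brain, fibrillar collagen lies mostly around vessels and in the meninges, while basement membranes line the vessels. A chain needs the right partner: COL1A1 and COL1A2 together make type I, COL3A1 alone makes type III, and COL5A1, COL5A2 and COL5A3 combine in type V, which takes part in starting and limiting fibril growth.

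KDM1A itself read 6.25, 6.34 and 6.31 on siKDM1A arrays a, b and c, against 9.50, 9.57 and 9.49 on control arrays a, b and c. These and all further values are deposited log2 signals, so a difference of 1 is a doubling of signal. KDM1A fell by 3.22 log2 units (SE 0.08, limma adjusted p = 7.1e-07). KDM5A, the gene the labels name, differed by -0.27 (limma adjusted p = 0.14) on the brightest of its 5 probe sets. It read 7.33, 7.52 and 7.45 on siKDM1A arrays a, b and c, against 7.65, 7.77 and 7.68 on control arrays a, b and c. Every siKDM1A array was the lower, as in 18.1% of all genes. Median signals of the 6 arrays lay between 5.09 and 5.16. Among the neuronal and medulloblastoma markers, the mean signals of TUBB3 and SOX2 over the 6 arrays, 11.7 and 10.4, lay above the upper quartile of all probe sets (7.10), and those of OTX2 and DCX, 2.91 and 3.17, below the lower quartile (3.66). Signals of different probe sets are not a measure of relative abundance. VIM, an intermediate filament of mesenchymal and many cultured cells, averaged 13.0.

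Of the 43 collagen genes, 3 rose and 1 fell after KDM1A knockdown, and the other 39 did not pass the test. A gene is called here when limma's p-value, adjusted by the Benjamini-Hochberg method over all 54613 probe sets, lies under 0.05 on the gene's brightest probe set. Over all genes, 3.45% were called higher and 5.46% lower. The genes that rose were COL3A1, COL5A2 and COL11A1, and the gene that fell was COL5A1, whose probe sets did not share a direction. All 4 belong to the fibril-forming class. The median log2 difference was 0.050 over the collagen genes and 0.01 over all genes, so the collagen genes as a whole moved little in either direction. Counted by arrays, 9 collagen genes had every siKDM1A array above every control array and 3 had every siKDM1A array below, where the shares over all genes were 13.5% and 18.1%. At an unadjusted p under 0.05, 7 collagen genes were higher and 4 lower, beside 9.75% and 14.4% of all genes. Over probe sets, 9 of the 112 were called higher and 1 lower, beside 2.18% and 3.73% of all probe sets. The standard errors of the 43 log2 differences ran between 0.08 and 0.17. These p-values measure the spread between 3 transfections of a single cell line.

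**Figure D1:**
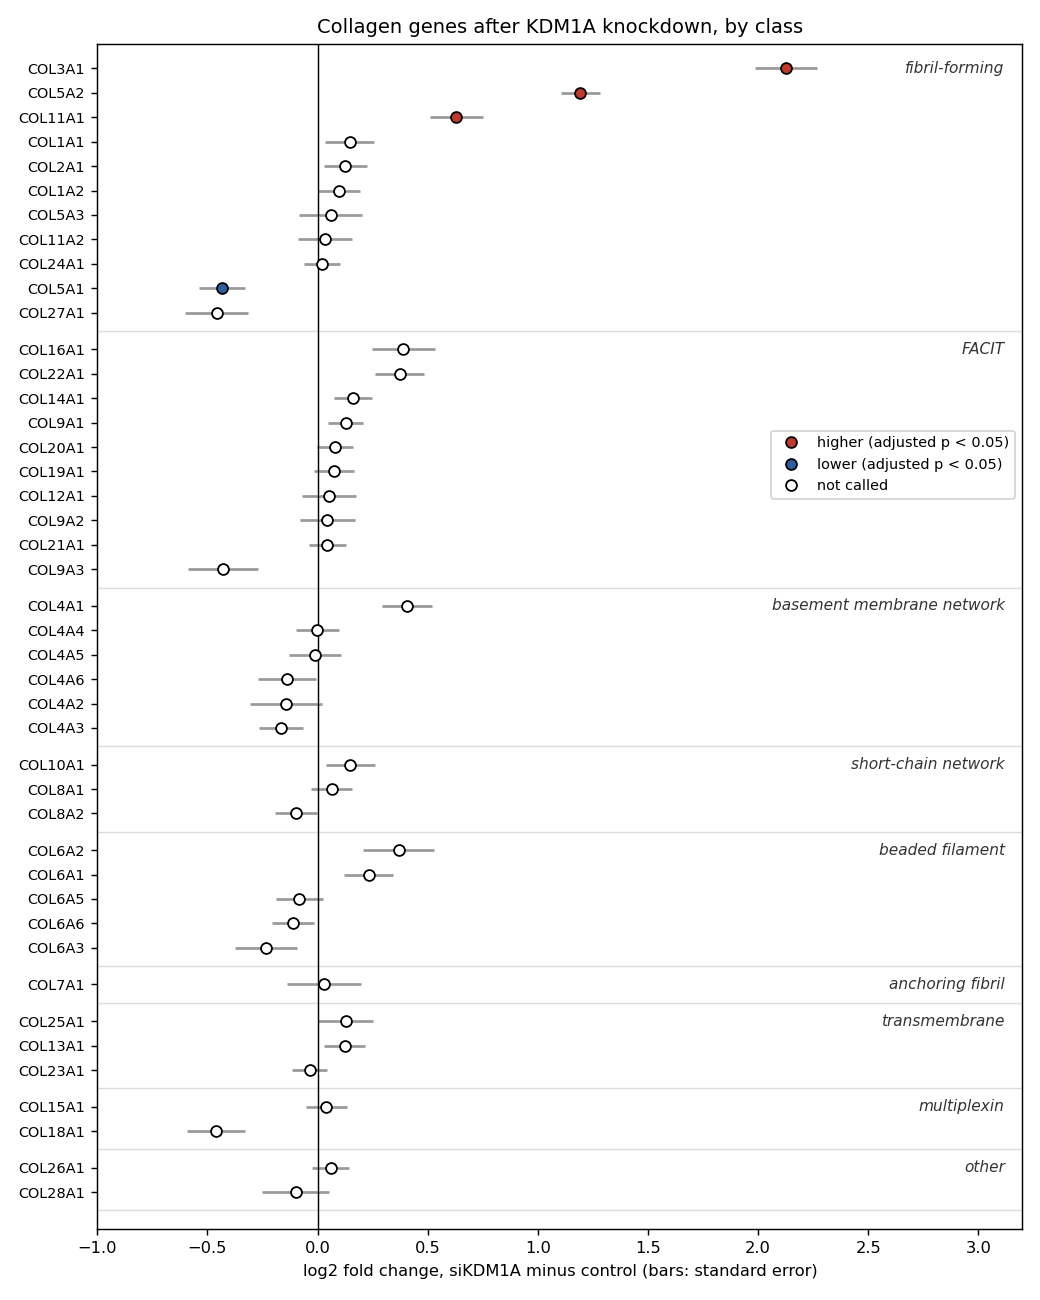
Log2 difference between siKDM1A and control arrays for the 43 collagen genes, each by its brightest probe set, grouped by class, with bars for the standard error (n = 3 arrays per group). COL3A1, COL5A2 and COL11A1 stand to the right at 2.13, 1.19 and 0.63, COL5A1 is the called gene to the left at -0.43, and all open points lie between -0.46 and 0.41.

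COL3A1 encodes the single chain of type III collagen, the fibrillar collagen of vessel walls, skin and reticular fibers. Its brightest probe set (215076_s_at) read 7.00, 6.77 and 6.52 on siKDM1A arrays a, b and c, against 4.66, 4.44 and 4.82 on control arrays a, b and c. The lowest siKDM1A array lay well above the highest control array. Group means were 6.76 ± 0.24 in siKDM1A cells and 4.64 ± 0.19 in control cells (SD, n = 3 each), a log2 difference of 2.13 (SE 0.14, limma adjusted p = 1e-04) or 4.36-fold. A second COL3A1 probe set (201852_x_at) read 5.98, 6.19 and 5.65 on siKDM1A arrays, against 4.06, 3.86 and 3.98 on control arrays. It too showed no overlap, with a log2 difference of 1.97 (SE 0.13, limma adjusted p = 0.00011). A dimmer probe set (211161_s_at) read 4.07, 4.00 and 3.99 on siKDM1A arrays, against 2.90, 3.31 and 2.50 on control arrays. Its control values lay below the lower quartile of all probe sets, and its difference was 1.12 (SE 0.17, limma adjusted p = 0.0061). The remaining pair of COL3A1 probe sets was dim and did not pass the test. One (232458_at) read 3.64, 3.72 and 3.51 on siKDM1A arrays, against 3.42, 3.37 and 3.56 on control arrays, a difference of 0.17 (limma adjusted p = 0.38). The other (215077_at) read 2.68, 2.77 and 2.90 on siKDM1A arrays, against 2.86, 2.75 and 2.83 on control arrays, a difference of -0.02 (limma adjusted p = 0.93). Groups overlapped on both of these. All 3 called COL3A1 probe sets carry the suffix _s_at or _x_at, which Affymetrix gives to probe sets that can match more than 1 transcript, and neither uncalled one does. With such probe sets left out, COL3A1 was not called (limma adjusted p = 0.41).

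COL5A2 encodes the alpha-2 chain of type V collagen. Its brightest probe set (221729_at) read 10.43, 10.37 and 10.34 on siKDM1A arrays a, b and c, against 9.30, 9.09 and 9.18 on control arrays a, b and c. The groups were far apart for their spread, at 10.38 ± 0.04 in siKDM1A cells and 9.19 ± 0.11 in control cells (SD, n = 3 each). The log2 difference was 1.19 (SE 0.09, limma adjusted p = 0.00018), or 2.29-fold. The gene's other probe set (221730_at) read 9.68, 9.62 and 9.47 on siKDM1A arrays, against 9.05, 8.82 and 8.88 on control arrays. Here as well no siKDM1A array overlapped a control array, and the difference was 0.67 (SE 0.10, limma adjusted p = 0.0049). The 2 probe sets therefore gave the same direction with unequal sizes.

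COL11A1 encodes the alpha-1 chain of type XI collagen, the chain that joins type II fibrils in cartilage and is low in most other adult tissues. Its brightest probe set (204320_at) read 4.18, 4.53 and 4.08 on siKDM1A arrays a, b and c, against 3.57, 3.70 and 3.64 on control arrays a, b and c. Every siKDM1A array was the higher, by a log2 difference of 0.63 (SE 0.12, limma adjusted p = 0.017), with siKDM1A array b the farthest from the controls. Group means were 4.27 ± 0.23 in siKDM1A cells and 3.64 ± 0.07 in control cells (SD, n = 3 each), the control mean lying just under the lower quartile of 3.66. A second probe set (37892_at) read 3.11, 3.50 and 3.18 on siKDM1A arrays, against 2.74, 2.77 and 2.88 on control arrays. It repeated the order of the groups at a lower signal, with a difference of 0.46 (SE 0.11, limma adjusted p = 0.048). Its call was lost in 10 of 13 alternative settings. Among the fits without 1 array it held only without siKDM1A array a (limma adjusted p up to 0.14 in the others). The remaining one (229271_x_at) read 2.20, 2.08 and 2.12 on siKDM1A arrays, against 2.17, 2.20 and 2.26 on control arrays, and the groups overlapped (difference -0.07, limma adjusted p = 0.70). At signals this low the size of a difference is uncertain. The call on the brightest probe set was lost without control array a and without control array c, where the limma adjusted p reached 0.075. It was also lost under the methods' analysis of variance per probe set (adjusted p = 0.16).

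COL5A1 encodes the alpha-1 chain of type V collagen, the partner of COL5A2. Its probe sets went different ways. The brightest (203325_s_at) read 7.55, 7.35 and 7.38 on siKDM1A arrays a, b and c, against 8.01, 7.74 and 7.82 on control arrays a, b and c. Every siKDM1A array was the lower, and the difference was -0.43 (SE 0.10, limma adjusted p = 0.041). A second probe set (212488_at) read 6.97, 7.12 and 7.34 on siKDM1A arrays, against 6.89, 6.55 and 6.64 on control arrays. On this one every siKDM1A array was the higher, and the difference of 0.45 (SE 0.12) missed the threshold at a limma adjusted p of 0.069. With cyclic loess and with dim probe sets left out, 212488_at was called higher (limma adjusted p down to 0.047). The last (212489_at) read 5.60, 5.76 and 5.81 on siKDM1A arrays, against 5.75, 5.63 and 5.63 on control arrays, and the groups overlapped (difference 0.05, limma adjusted p = 0.81). A direction for COL5A1 as a gene therefore depends on the probe set. Of 15 alternative settings, 10 ended its call, among them each fit without 1 array other than siKDM1A array a (limma adjusted p up to 0.14). COL5A3, the remaining type V chain, read 5.83, 5.61 and 6.04 on siKDM1A arrays, against 6.00, 5.75 and 5.54 on control arrays. Its groups overlapped, with a difference of 0.06 (95% interval -0.26 to 0.38).

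**Figure D2:**
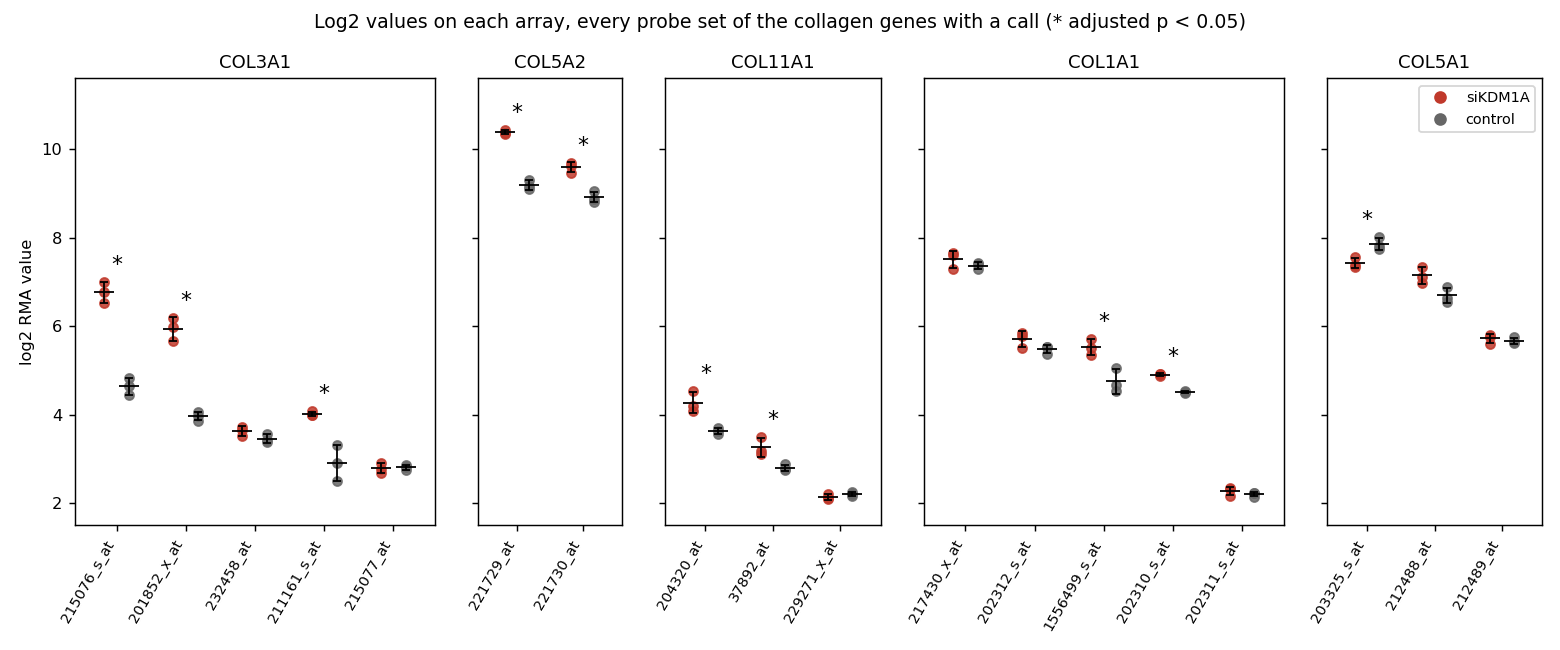
Log2 values on each array for all 18 probe sets of the 5 collagen genes with a call on any probe set, siKDM1A arrays in red to the left of control arrays in grey, with horizontal lines for the mean and bars for the SD (n = 3 each). Both COL5A2 probe sets and 3 of the 5 COL3A1 probe sets separate the groups upward, while the 3 COL5A1 probe sets run lower, higher and level in siKDM1A cells.

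Type I collagen, the main fibril of most connective tissue, gave a mixed picture. COL1A1, its alpha-1 chain, was not called on its brightest probe set (217430_x_at), which read 7.60, 7.30 and 7.65 on siKDM1A arrays, against 7.40, 7.42 and 7.29 on control arrays. The groups overlapped, with a difference of 0.15 (95% interval -0.10 to 0.39, limma adjusted p = 0.54). Among its dimmer probe sets, 1556499_s_at read 5.71, 5.51 and 5.35 on siKDM1A arrays, against 5.05, 4.53 and 4.66 on control arrays. This probe set rose, without overlap, by 0.78 (SE 0.15, limma adjusted p = 0.016). Probe set 202310_s_at read 4.93, 4.92 and 4.87 on siKDM1A arrays, against 4.48, 4.53 and 4.50 on control arrays. It rose by 0.40 (SE 0.08, limma adjusted p = 0.019), with tight groups well apart. The 1556499_s_at call was lost without siKDM1A array a, control array b or control array c (limma adjusted p up to 0.079), and the 202310_s_at call held, among the fits without 1 array, only without siKDM1A array c (limma adjusted p up to 0.092 in the others). The other 2 COL1A1 probe sets differed by 0.23 and 0.07 and were not called. COL1A2, the partner chain, read 4.88, 4.66 and 4.73 on siKDM1A arrays, against 4.74, 4.56 and 4.68 on control arrays. Its groups overlapped, its difference was 0.10 (95% interval -0.12 to 0.31, limma adjusted p = 0.65), and none of its 3 probe sets was called. The upper end of that interval, 0.31, is far below the rise of 2.13 on the brightest COL3A1 probe set. The uncalled COL3A1 probe sets, at 0.17 and -0.02, lay below 0.31 as well. The interval covers a single COL1A2 probe set, whose mean signal of 4.71 was under the median of all probe sets (5.12).

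The other fibril-forming genes did not pass the test. COL27A1 read 7.81, 7.75 and 7.57 on siKDM1A arrays, against 8.47, 7.89 and 8.15 on control arrays. Each siKDM1A array lay below each control array, yet the difference of -0.46 (SE 0.14) had a limma adjusted p of 0.11. Its next brightest probe set differed by -0.44 (limma adjusted p = 0.096), also without overlap. COL2A1, the cartilage fibril chain, differed by 0.13, and COL11A2, the alpha-2 chain of type XI, by 0.03 (95% interval -0.24 to 0.31). COL24A1 differed by 0.02. In the fibril-forming class, 3 of 11 genes were called higher and 1 lower, with a median log2 difference of 0.10.

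COL3A1 and COL5A2 are neighbours on chromosome 2 in the RefSeq annotation of GRCh38.p14, with no protein-coding gene between them. Among the 7 pairs of measured collagen genes that are adjacent in that order, this was the pair in which both genes were called. COL4A1 and COL4A2, COL4A3 and COL4A4, COL4A5 and COL4A6, COL6A1 and COL6A2, COL6A5 and COL6A6, and COL9A1 and COL19A1 had no call in either gene. On the flanks of COL3A1 and COL5A2, the nearest 3 protein-coding genes on each side were not called on any probe set. CALCRL, a receptor subunit for calcitonin-family peptides, had differences between 0.16 and 0.38 on its 3 probe sets, the largest at a limma adjusted p of 0.11. TFPI, an inhibitor of blood coagulation, had differences between -0.03 and 0.24 on 5 probe sets. GULP1, an engulfment adaptor, had differences between 0.01 and 0.26 on 5. On the other side WDR75 differed by -0.10, SLC40A1, the iron exporter, by 0.18 and 0.13, and ASNSD1 by 0.20.

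**Figure D3:**
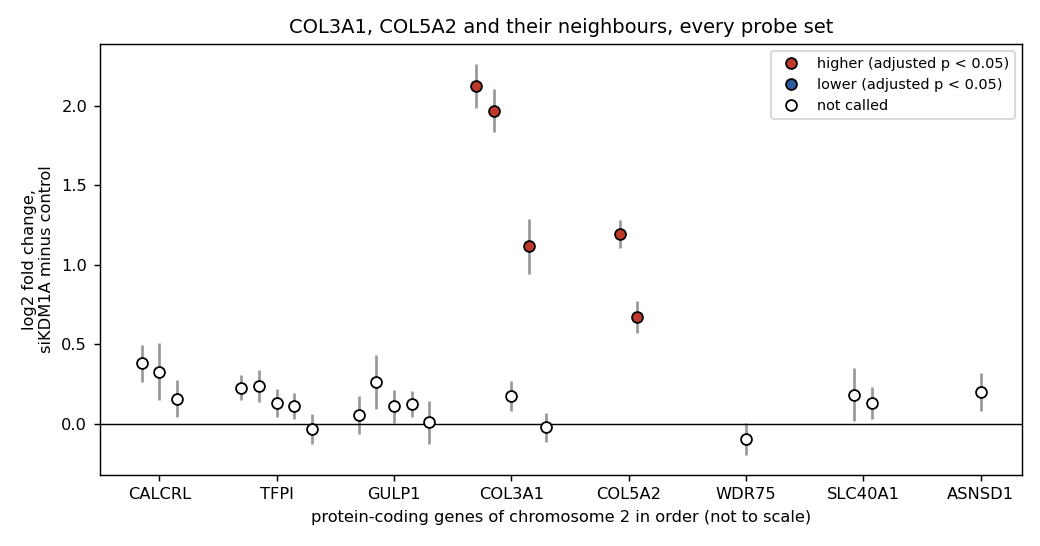
Log2 fold change, siKDM1A minus control, of every probe set of COL3A1, COL5A2 and the nearest 3 protein-coding genes on each side, in chromosome order and not to scale, with bars for the standard error (n = 3 arrays per group). The called probe sets belong to COL3A1 and COL5A2, and those of the flanking genes lie between -0.10 and 0.38.

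Promoter sequence was looked up for the members with a RefSeq window, the 250 bases before each annotated start in GRCh38.p14. Of the 43 genes, 31 had at least 1 window, 43 windows in all, and the shares below are set against 35116 windows of all genes. COL11A1 and COL5A1 are shown because they are the called genes with a window, and the stretch between the starts of COL4A1 and COL4A2 because both genes read from it in opposite directions. COL11A1 lies at chr1:103108523-103108772 on the minus strand and COL5A1 at chr9:134641553-134641802 on the plus strand, each written along the gene's own strand. The COL4A1-COL4A2 stretch, chr13:110307158-110307283, is written on the plus strand, on which COL4A2 is read, while COL4A1 is read from the minus strand. Capitals mark CCAAT boxes (CCAAT) and GC boxes (GGGCGG) on either strand.
COL11A1: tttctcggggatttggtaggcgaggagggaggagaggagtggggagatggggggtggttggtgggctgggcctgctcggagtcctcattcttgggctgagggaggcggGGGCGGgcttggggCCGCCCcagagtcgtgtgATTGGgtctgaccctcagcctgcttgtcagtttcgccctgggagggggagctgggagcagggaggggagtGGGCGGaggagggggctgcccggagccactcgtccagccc
COL5A1: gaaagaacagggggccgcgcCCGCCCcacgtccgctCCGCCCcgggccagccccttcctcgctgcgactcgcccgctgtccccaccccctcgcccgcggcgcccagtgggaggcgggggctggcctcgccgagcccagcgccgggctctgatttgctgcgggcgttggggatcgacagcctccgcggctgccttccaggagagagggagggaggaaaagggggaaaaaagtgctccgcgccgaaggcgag
COL4A1-COL4A2: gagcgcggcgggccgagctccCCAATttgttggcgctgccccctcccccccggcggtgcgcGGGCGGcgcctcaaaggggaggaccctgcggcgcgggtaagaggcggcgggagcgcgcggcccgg

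The COL11A1 window held 1 CCAAT box and 3 GC boxes, and 68.8% of its bases were G or C. The COL5A1 window held no CCAAT box and 2 GC boxes, with 74% G or C. The 126 bases between COL4A1 and COL4A2 held 1 of each, with 80.2% G or C. CCAAT boxes occurred in 25.6% of the collagen windows (10 genes) and 32% of all windows, and GC boxes in 55.8% (21 genes) and 42.6%. The TATA box (TATAAA) was found in 16.3% of the collagen windows and 10.7% of all windows. The AP-1 element (TGANTCA), searched on both strands like the others, was found for COL10A1 among the collagen genes, in 2.33% of their windows, and in 6.57% of all windows. These are matches of letters and describe the windows only.

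Outside the fibril-forming class, none of the 32 measured genes was called by limma, and 4 were higher and 2 lower at an unadjusted p under 0.05, beside 9.75% and 14.4% of all genes. The median log2 difference of these genes was 0.045. With the replicate letters as a block, 2 were called (COL18A1 and COL9A3, both lower), and 2 with an intensity trend and robust prior in limma (COL18A1 lower and COL4A1 higher). By the methods' analysis of variance, none was.

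Type IV collagen is the network former of basement membranes, and COL4A1 and COL4A2 chains assemble together. COL4A1 read 10.17, 9.97 and 10.19 on siKDM1A arrays a, b and c, against 9.89, 9.52 and 9.70 on control arrays a, b and c. No siKDM1A array overlapped a control array, and the difference of 0.41 (SE 0.11) had a limma adjusted p of 0.078. COL4A2, whose start lies 126 bases away from that of COL4A1, read 10.94, 10.40 and 10.73 on siKDM1A arrays, against 11.12, 10.61 and 10.77 on control arrays. Its groups overlapped, with a difference of -0.14 (95% interval -0.51 to 0.22). A difference between COL4A1 and COL4A2 was not tested. Of the chains that build the network of the kidney glomerulus, COL4A3 differed by -0.17 (95% interval -0.39 to 0.06), COL4A4 by -0.0017 (-0.22 to 0.22) and COL4A5 by -0.01 (-0.28 to 0.25). COL4A6 differed by -0.14. The class had a median of -0.07.

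Type VI collagen forms beaded filaments that link cells to the surrounding matrix, from COL6A1, COL6A2 and a longer chain. COL6A1 read 10.53, 10.21 and 10.39 on siKDM1A arrays, against 10.25, 10.01 and 10.17 on control arrays. Groups overlapped, with a difference of 0.23 (95% interval -0.02 to 0.48), and none of its 8 probe sets was called, the nearest being 214200_s_at at 0.40 (limma adjusted p = 0.052). COL6A2 read 6.87, 6.66 and 7.28 on siKDM1A arrays, against 6.71, 6.35 and 6.65 on control arrays, a difference of 0.37 (limma adjusted p = 0.26). COL6A3, the usual longer chain, read 4.33, 4.46 and 4.53 on siKDM1A arrays, against 4.95, 4.38 and 4.68 on control arrays. Its groups overlapped too, with a difference of -0.23 (limma adjusted p = 0.43). COL6A5 and COL6A6 differed by -0.08 and -0.11 at signals below the lower quartile.

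Among the 10 FACIT genes, 5 had every siKDM1A array above every control array and none had every one below, beside 13.5% and 18.1% of all genes, and none passed the test. COL16A1 read 8.04, 7.75 and 7.56 on siKDM1A arrays, against 7.55, 7.15 and 7.48 on control arrays, a difference of 0.39 (SE 0.14, limma adjusted p = 0.18). COL22A1, found at tissue junctions, read 5.83, 5.86 and 5.91 on siKDM1A arrays, against 5.47, 5.29 and 5.70 on control arrays, a difference of 0.37 (SE 0.11, limma adjusted p = 0.096). In both genes the groups did not overlap, though for COL16A1 siKDM1A array c lay only just above control array a. The others of the 5 were COL14A1, COL9A1 and COL20A1, with differences of 0.16, 0.13 and 0.08 on the brightest probe set. On COL14A1 probe set 228750_at every siKDM1A array was instead the lower (difference -0.25, limma adjusted p = 0.25). The remaining COL14A1 probe sets, 212865_s_at and 216865_at, differed by -0.11 and 0.17. The second probe sets of COL9A1 and COL20A1 differed by 0.08 and -0.11. COL9A3, a type IX chain, read 11.04, 10.54 and 10.70 on siKDM1A arrays, against 11.46, 10.93 and 11.18 on control arrays. Array a of each group was the highest and array b the lowest, the groups overlapped, and the difference was -0.43 (SE 0.16, limma adjusted p = 0.18). COL12A1, which coats type I fibrils, read 10.33, 10.19 and 10.02 on siKDM1A arrays, against 10.35, 9.98 and 10.05 on control arrays. The difference was 0.05 (95% interval -0.23 to 0.33).

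COL18A1, the multiplexin whose cleaved end is endostatin, read 8.04, 7.66 and 7.92 on siKDM1A arrays, against 8.56, 8.17 and 8.28 on control arrays. Every siKDM1A array was the lower, but the difference of -0.46 (SE 0.13) had a limma adjusted p of 0.079. Its second probe set differed by -0.35 with overlapping groups (limma adjusted p = 0.30). COL15A1, the other multiplexin, differed by 0.04. COL7A1, the anchoring fibril of the skin, read 8.48, 8.34 and 8.82 on siKDM1A arrays, against 8.84, 8.23 and 8.48 on control arrays. Its groups overlapped, with a difference of 0.03 (95% interval -0.35 to 0.41). The short-chain network genes COL8A1, COL8A2 and COL10A1 differed by 0.06, -0.10 and 0.15. The transmembrane collagens COL13A1, COL23A1 and COL25A1 differed by 0.12, -0.04 and 0.13, and COL26A1 and COL28A1 by 0.06 and -0.10, all with overlapping groups.

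Signal level set a limit for some members. Of the 43 genes, 7 had a mean over the 6 arrays below the lower quartile of all probe sets (3.66) and 11 lay between it and the median (5.12), while 11 lay between the median and the upper quartile (7.10) and 14 above it. The deposited values carry no detection call, so a dim gene was not called absent, and no order of expression was read from the signals of different genes. None of the 7 genes below the lower quartile was called, but this mean includes the siKDM1A arrays. COL11A1, called higher, had a control mean of 3.64, under that quartile, and a mean over the 6 arrays of 3.95.

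**Figure D4:**
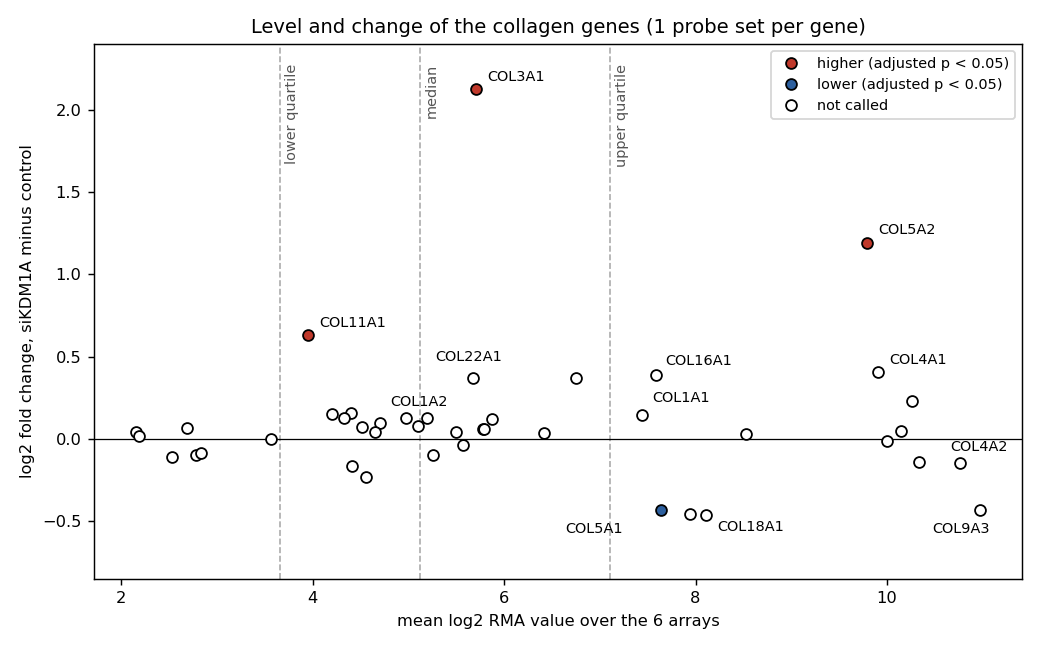
Log2 fold change, siKDM1A minus control, of the 43 collagen genes against their mean log2 signal over the 6 arrays, with dashed lines at the quartiles of all probe sets (3.66, 5.12 and 7.10). The called genes COL11A1, COL3A1, COL5A1 and COL5A2 are spread across the signal range, and the genes below the lower quartile lie close to 0. The mean includes the siKDM1A arrays, and the control mean of COL11A1 alone lies under the lower quartile line.

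Individual arrays touched the collagen values. Control array a was the highest of its group in 26 of the 43 genes (60.5%), against 39.1% of all genes. siKDM1A array b was the lowest of its group in 24 (55.8%), against 36.1% of all genes. Measured from the control mean, the median collagen gene stood at 0.08, -0.00018 and 0.08 on siKDM1A arrays a, b and c, and at 0.09, -0.04 and -0.01 on control arrays a, b and c. Without control array a the median log2 difference of the collagen genes was 0.11.

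The enzymes, carriers and receptors that act on collagen were read from 6 lists with 88 genes, of which 86 were measured. Together 11 rose and 3 fell, beside the shares of 3.45% and 5.46% over all genes, with a median log2 difference of 0.07. The lists were chosen with earlier results of these data known, and their median signal was 7.17, against 6.29 over all genes. In the list for chain modification and folding in the endoplasmic reticulum, 4 of 21 measured genes rose and none fell, with a median of 0.03. The prolyl 3-hydroxylase P3H2 read 9.51, 9.70 and 9.67 on siKDM1A arrays, against 8.80, 8.84 and 8.82 on control arrays. It rose without overlap by 0.81 (limma adjusted p = 0.0011), but a dimmer P3H2 probe set differed by 0.05. The lysyl hydroxylase PLOD2, which prepares cross-link sites, read 10.72, 10.85 and 10.60 on siKDM1A arrays, against 9.81, 10.06 and 10.05 on control arrays. It rose by 0.75 (limma adjusted p = 0.004), and its other probe set by 0.68 (limma adjusted p = 0.046). FKBP14, a folding enzyme for procollagen including type III, read 8.44, 8.57 and 8.26 on siKDM1A arrays, against 7.52, 7.79 and 7.79 on control arrays. It rose by 0.72 (limma adjusted p = 0.0069), also on a second probe set. HSPA5, a general chaperone, rose by 0.42 (limma adjusted p = 0.048), a call lost in every fit without 1 array (limma adjusted p between 0.066 and 0.15), while its dimmer probe set rose by 0.57 (limma adjusted p = 0.005). SERPINH1, the collagen-specific chaperone HSP47, differed by -0.40 (limma adjusted p = 0.056). CRTAP, of the same list, differed by -0.20 on its brightest probe set and was not called (limma adjusted p = 0.32). Its dimmer probe set 201380_at was called lower without overlap, by 0.46 log2 units (limma adjusted p = 0.015), and all 5 CRTAP probe sets had negative differences.

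In the list for export and processing, 1 of 18 genes fell and none rose, with a median of 0.01. KLHL12, the ubiquitin ligase adaptor that enlarges the vesicles carrying procollagen, read 8.03, 8.35 and 8.45 on siKDM1A arrays, against 8.85, 9.13 and 9.01 on control arrays. It fell by 0.72 log2 units without overlap (limma adjusted p = 0.010), though not without control array c (limma adjusted p = 0.053), and its dimmer probe set was not called (limma adjusted p = 0.082). Among 8 cross-linking genes 3 rose and none fell, with a median of 0.11. The transglutaminase TGM2 read 5.59, 5.46 and 5.50 on siKDM1A arrays, against 4.50, 4.58 and 4.42 on control arrays. It rose by 1.02 (limma adjusted p = 0.00033) by the brightest probe set, and none of the other 3 was called. LOX, the lysyl oxidase that starts collagen cross-links, read 7.69, 7.76 and 7.50 on siKDM1A arrays, against 6.78, 6.84 and 6.98 on control arrays. It rose by 0.78 (limma adjusted p = 0.0027) and on a second probe set by 0.63 (limma adjusted p = 0.0073). LOXL2 rose by 0.41 (limma adjusted p = 0.035) on 1 of 4 probe sets, a call lost in every fit without 1 array (limma adjusted p between 0.053 and 0.14).

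Among 10 collagen receptors 2 rose and none fell, with a median of 0.11. ITGA1, the collagen-binding integrin alpha-1, read 5.79, 5.92 and 6.04 on siKDM1A arrays, against 4.92, 4.76 and 4.60 on control arrays. The groups were far apart, and the difference was 1.15 (SE 0.11, limma adjusted p = 0.00057). ITGA10 rose by 0.40 (limma adjusted p = 0.046), which among the fits without 1 array held only without siKDM1A array c (limma adjusted p up to 0.18 in the others), and ITGA2 differed by 0.44 (limma adjusted p = 0.051). Of 17 small proteoglycans and fibril regulators, SPARC, a collagen-binding matrix protein, rose by 0.44 (limma adjusted p = 0.018) and BGN, the proteoglycan biglycan, fell by 0.63 log2 units (limma adjusted p = 0.027). The SPARC call was lost without siKDM1A array a or any single control array (limma adjusted p up to 0.076), and the BGN call without siKDM1A array b, siKDM1A array c, control array a or control array c (limma adjusted p up to 0.11). Of 12 collagen-degrading enzymes, the membrane metalloproteinase MMP16 read 8.55, 8.87 and 8.85 on siKDM1A arrays, against 7.16, 7.26 and 7.14 on control arrays. It rose by 1.57 (SE 0.11, limma adjusted p = 0.00011), and 3 of its 5 probe sets were called higher. The collagenase MMP13 read 5.20, 5.44 and 5.27 on siKDM1A arrays, against 5.89, 6.26 and 6.16 on control arrays. It fell by 0.80 log2 units without overlap (limma adjusted p = 0.0047).

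**Figure D5:**
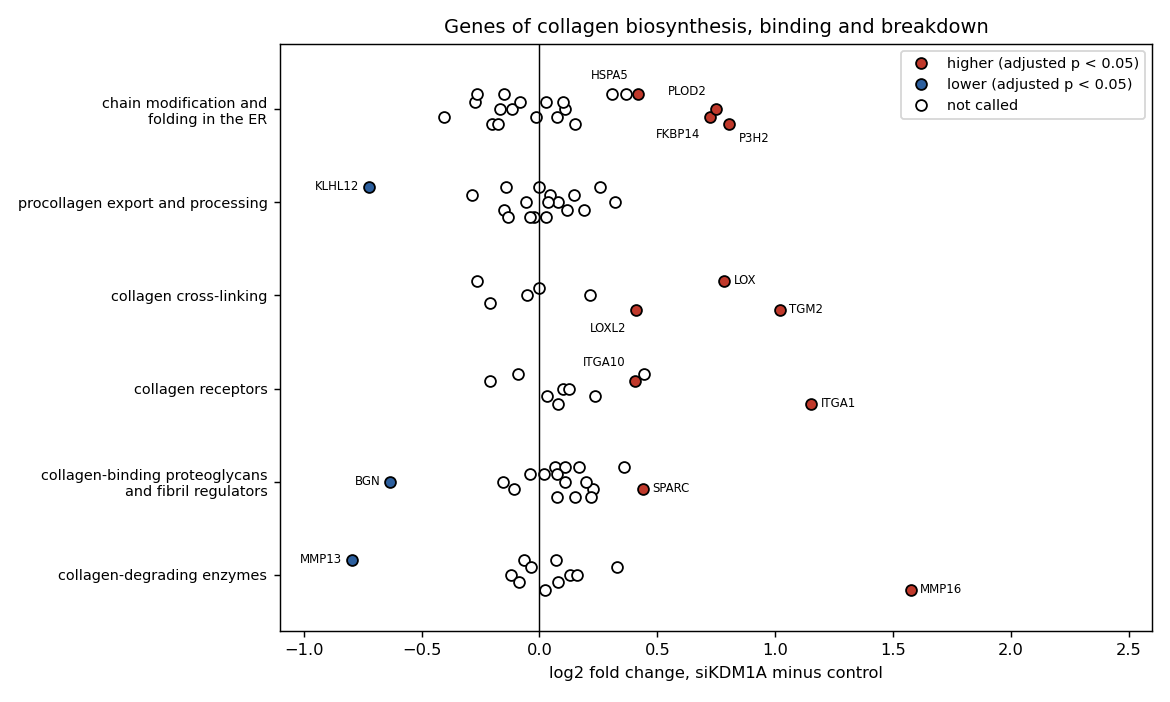
Log2 fold change, siKDM1A minus control, of the 86 measured genes in 6 lists of collagen biosynthesis, binding and breakdown, 1 point per gene on its brightest probe set (n = 3 arrays per group). The 11 red points range up to MMP16 at 1.57, and the 3 blue points are KLHL12, BGN and MMP13, with MMP13 the lowest at -0.80.

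Markers of other cell types were read beside these genes, again against shares of 3.45% called higher and 5.46% called lower over all genes. Of 13 fibroblast and mesenchymal markers, 2 rose (LOX, which is also in the cross-linking list, and PRRX1 at 0.69) and 1 fell (TWIST1, by 0.63), with a median of -0.01. Their mean log2 signal ran between 7.78 and 7.87 on siKDM1A arrays, and between 7.70 and 7.76 on control arrays. PDGFRA, PDGFRB and THY1, surface proteins of fibroblasts and pericytes, differed by -0.15, 0.13 and 0.03. SNAI2, CDH2 and VIM differed by 0.42, 0.24 and -0.13 (limma adjusted p = 0.052, 0.27 and 0.44). Of the 13 markers, 3 had every siKDM1A array above every control array and 2 had every one below, beside 13.5% and 18.1% of all genes. Of 14 neuronal and medulloblastoma markers MAP2 rose by 1.12 (limma adjusted p = 3e-04). ZIC1, ZIC2 and SOX2 fell by 0.39, 0.40 and 0.43, nearer the threshold (limma adjusted p = 0.026, 0.042 and 0.048). Of 6 endothelial and blood markers PECAM1 rose by 0.35, on 1 of its 5 probe sets. Of 6 epithelial markers CLDN1 rose by 0.85 and KRT19 fell by 0.61, on 1 of its 2 probe sets. The median of the epithelial list was 0.21. In 4 of these 6 genes every siKDM1A array was the higher and in 1 every one was the lower, beside 13.5% and 18.1% of all genes. The part of these differences in the collagen values was not tested, and in a bulk culture more RNA per cell and more cells expressing a gene cannot be told apart.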

How the data were processed

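RNA of 3 siKDM1A and 3 control cultures of ONS-76 cells was hybridized by the authors to Affymetrix U133 Plus 2.0 arrays. The deposited file holds log2 values of 54675 probe sets, which the authors obtained by RMA in the Partek Genomics Suite (version not given in the sources used here). RMA gives all arrays a common distribution, so that a shift shared by most genes is mostly lost. Scanner files were not used here.

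The 62 Affymetrix controls were dropped, and the other 54613 probe sets were fitted with limma 3.58.1 under R 4.3.3, using lmFit and eBayes without a trend on the siKDM1A minus control contrast. Tests were two-sided, p-values were adjusted over all these probe sets by Benjamini-Hochberg, and the threshold was 0.05. The platform annotation gave 1 symbol to 41091 probe sets, several to 1801 and none to 11721. All 43 collagen genes matched RefSeq (GRCh38.p14) by Entrez ID. Among the probe sets of a gene, the brightest by its mean over 6 arrays stood for the gene. Array values were given for collagen genes called on any probe set. The brightest gene of each class and chains that share a trimer with a named gene were named, and the array values given for some of them and for other genes were picked with those values in view. From each list of related genes the called ones were named. Members and lists were chosen with earlier results of these data known. The fitting steps were tested on simulated data. Alternatives covered normalization, filtering, variance model, the one-way ANOVA of the methods, probe set choice and leaving out each array. The number of arrays limits the precision.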

Additional observations from a re-analysis of the deposited data

How the results depend on the processing

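Of the named collagen genes, COL5A2 was called under all 15 alternatives (adjusted p between 9.1e-06 and 0.026) and COL3A1 under 14. With _x_at and _s_at probe sets left out, COL3A1 rested on a dim probe set and differed by 0.17 (limma adjusted p = 0.41), and the only probe set of KDM1A was removed. COL5A1 turned to 0.025 with the mean of all its probe sets and to 0.45 without _x_at and _s_at probe sets (limma adjusted p = 0.061), and averaging probe sets called COL1A1 higher (limma adjusted p = 0.028). The count of collagen genes called lower was 0 with cyclic loess, the ANOVA, the mean of all probe sets, without _x_at and _s_at probe sets and over 1.5-fold, and 2 with an intensity trend and robust prior, which also called 2 genes outside the fibril-forming class. Leaving out 1 array gave 2 to 3 collagen genes higher, 0 to 1 lower, 0 to 0 outside the fibril-forming class, a median of 0.015 to 0.11, and 7 to 11 genes of the related lists higher and 1 to 3 lower. For those lists the ANOVA called 4 higher and 0 lower, and 7 were higher over 1.5-fold.

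Same-letter correlations of deviations were 0.11, 0.23 and -0.13 for a, b and c, and those of different letters ran from -0.32 to 0.18. The b value was the highest and the c value was negative, so these values do not settle whether the letters pair the arrays. With the replicate block, 3 collagen genes were called lower and 2 outside the fibril-forming class. Over all genes, 683 were higher and 1080 lower, against 814 and 838 with cyclic loess, 845 and 1385 with the intensity trend, 761 and 1398 with dim probe sets left out, 380 and 417 over 1.5-fold, 187 and 250 with the ANOVA, and 366 to 594 and 386 to 844 without 1 array. Higher genes were 38.7% of the calls, 49.3% with cyclic loess. With dim probe sets left out, 25 collagen genes remained and COL11A1 had no value. Causes of these changes were not tested, and low signal limits the size of differences in dim members.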
